A study of Mus musculus with 9 samples.

Results

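Mitosis and G2/M genes were followed in mouse ovaries as a set of 35 genes, defined by name and found as 35 rows of the 54838 in the deposited expression table. Every row was read in all 9 libraries. All 35 passed the filter on low values (3 or more libraries at 0.5 RPKM or above) and were tested among 18889 genes. Total RNA came from ovaries of adult mice collected 40 h after PMSG, pregnant mare serum gonadotropin, a hormone that drives follicle growth. The 3 genotypes, with 3 libraries each, were DKO_TG, labelled DKO LXR TG-AMH-LXRb, then DKO, labelled DKO LXR, and wild type (WT). LXR names the liver X receptors, nuclear receptors for oxysterols that regulate cholesterol and lipid metabolism. DKO_TG and DKO carry the same labelled knockout, and DKO_TG adds a transgene whose name joins AMH, a hormone gene of granulosa cells, with LXRb. The labels name no allele, strain or promoter beyond this, nor do they tie each library to an animal of its own. The p-values therefore describe how these libraries vary, which may in part be technical.

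The receptor genes followed the knockout labels, while the transgene was not checked by them. Nr1h3 (LXRa) averaged 0.670 ± 0.145 RPKM in DKO_TG, 0.807 ± 0.273 RPKM in DKO and 4.68 ± 0.701 RPKM in WT (SD, n = 3 each). Nr1h2 (LXRb) averaged 5.67 ± 0.458 RPKM in DKO_TG, 6.53 ± 1.09 RPKM in DKO and 18.8 ± 3.64 RPKM in WT (SD, n = 3 each), so it was not higher with the transgene label. Directions drawn for DKO_TG rest on that label. The libraries held 40.1 to 59.4 M reads, recovered from the RPKM values. Markers of granulosa cells and of oocytes were detected in every library, with 0 of 10 and 0 of 13 at 0 throughout, as an ovary sample should show. WT libraries stood apart in a nuclear RNA: Malat1 averaged 261 ± 16.4 RPKM in DKO_TG, 199 ± 19.1 RPKM in DKO and 7.38 ± 5.03 RPKM in WT (SD, n = 3 each). Its part in any difference from WT given here was not tested, and it cannot be told apart from genotype.

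The genes encode the machinery that carries a cell through G2 and mitosis. Cyclin A2 and the B cyclins switch on the kinase CDK1, the Polo and Aurora kinases build the spindle, kinetochore proteins tie chromosomes to it, and the anaphase-promoting complex ends mitosis by marking cyclin B and securin for destruction. Their transcripts rise late in the cell cycle, through a promoter element called the CHR and through CCAAT boxes, which are read by the DREAM and MuvB complexes with B-MYB, FOXM1 and NF-Y. In the ovary after PMSG the granulosa cells of growing follicles are the main dividing cells. In bulk tissue, fewer dividing cells and less RNA per dividing cell cannot be told apart.

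Promoters of 29 of the 35 genes were matched in RefSeq (GRCm38.p6, 31 promoters, 250 bases before to 50 after the start). The CHR was searched as TTTGAA or TTCGAA and the CCAAT box as CCAAT, each on both strands. A CHR match and a CCAAT match can overlap, as in Cdca8, which also holds CCAAT matches apart from its CHR. A CHR was held by 83.9% of the members' promoters, against 19.2% of all 32851 promoters of the same length. CCAAT was held by 80.6% of the members' promoters and by 37.4% of all promoters. Both motifs stood together in 74.2% of the members' promoters and in 7.52% of all promoters. A match is a description of the sequence and not a site in use. The sequences shown belong to the most abundant member (Ccnb2), 3 members that were lower in DKO than in WT (Ube2c, Plk1, Nuf2) and the 3 that were higher in a knockout group than in WT (Cenpa, Kif11, Kif23). Each runs 5′ to 3′ from 150 bases before to 30 after the start, with CHR and CCAAT letters of either strand in capitals.
Ccnb2, chr9:70421525-70421704, minus strand: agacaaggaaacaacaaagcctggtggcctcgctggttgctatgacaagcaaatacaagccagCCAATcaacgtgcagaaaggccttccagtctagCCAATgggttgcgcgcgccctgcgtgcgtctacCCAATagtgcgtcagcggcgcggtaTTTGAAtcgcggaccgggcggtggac
Ube2c, chr2:164769779-164769958, plus strand: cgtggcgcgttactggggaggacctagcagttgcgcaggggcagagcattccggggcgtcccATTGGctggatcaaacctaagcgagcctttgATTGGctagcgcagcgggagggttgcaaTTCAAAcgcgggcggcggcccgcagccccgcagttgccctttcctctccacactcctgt
Plk1, chr7:122159285-122159464, plus strand: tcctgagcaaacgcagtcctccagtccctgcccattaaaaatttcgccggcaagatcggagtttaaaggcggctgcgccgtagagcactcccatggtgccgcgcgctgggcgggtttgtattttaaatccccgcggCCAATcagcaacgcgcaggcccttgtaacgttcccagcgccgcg
Nuf2, chr1:169531435-169531614, minus strand: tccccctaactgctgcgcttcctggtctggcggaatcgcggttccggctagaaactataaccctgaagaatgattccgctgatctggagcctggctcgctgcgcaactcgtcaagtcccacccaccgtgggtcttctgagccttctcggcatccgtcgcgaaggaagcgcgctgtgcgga
Cenpa, chr5:30666736-30666915, plus strand: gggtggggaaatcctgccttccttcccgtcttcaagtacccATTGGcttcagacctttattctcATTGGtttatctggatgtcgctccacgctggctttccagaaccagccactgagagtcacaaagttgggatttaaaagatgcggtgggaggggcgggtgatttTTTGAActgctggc
Kif11, chr19:37376232-37376411, plus strand: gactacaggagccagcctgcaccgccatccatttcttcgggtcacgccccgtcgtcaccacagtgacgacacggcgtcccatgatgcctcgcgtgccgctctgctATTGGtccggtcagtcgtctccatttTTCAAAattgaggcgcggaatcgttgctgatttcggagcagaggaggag
Kif23, chr9:61946770-61946949, minus strand: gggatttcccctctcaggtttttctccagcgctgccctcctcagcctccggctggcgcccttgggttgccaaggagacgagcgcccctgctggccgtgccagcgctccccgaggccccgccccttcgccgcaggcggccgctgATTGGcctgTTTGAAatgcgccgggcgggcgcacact
Ccnb2, which was called in no comparison, and Ube2c, which was lower in DKO than in WT, both hold CCAAT boxes followed by a CHR. Cenpa, Kif11 and Kif23 hold both motifs too. In Plk1 a CCAAT box is printed and a CHR starts at base 30 after the start, at the edge of the stretch shown. Neither motif is in the searched window of Nuf2, nor in those of Nusap1 and Birc5, and these letters say nothing about which factor acts there.

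The 35 genes moved up and down together from library to library within each genotype, and this spread was wider than the differences between genotype means. The members' summed level was 306, 219 and 278 RPKM in DKO_TG libraries 1, 2 and 3, then 173, 221 and 301 RPKM in DKO libraries 1, 2 and 3, and 222, 283 and 297 RPKM in WT libraries 1, 2 and 3. The ranges of the 3 genotypes overlapped. The mean log2(RPKM + 0.5) over the 35 genes averaged 2.83 in DKO_TG, 2.62 in DKO and 2.75 in WT, while it spanned 0.45 between DKO_TG libraries, 0.73 between DKO libraries and 0.38 between WT libraries. In DKO, replicate 1 was the lowest and replicate 3 the highest library for 35 of 35 members. In DKO_TG, replicate 2 was the lowest library for 35 of 35 members and replicate 1 the highest for 31. WT replicate 1 was the lowest WT library for 34 members, all but Cenpa.

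For all tested genes no library was that one-sided. DKO replicate 1 was the lowest DKO library for 34.8% of tested genes, DKO_TG replicate 2 the lowest of its group for 35.4%, and WT replicate 1 for 36.8%. Within DKO, however, every gene of the DNA replication list described below also rose from replicate 1 to 2 to 3. Mcm6 had 6.24, 7.98 and 12.8 RPKM there and Tk1 had 2.88, 5.68 and 6.23 RPKM. The order of the DKO libraries was thus not particular to the mitotic genes. Some kinetochore and spindle genes outside the 35, such as Spc25 and Hmmr, were also lowest in DKO_TG replicate 2, DKO replicate 1 and WT replicate 1. Others, such as Zwint, were not. The pattern in DKO_TG and WT was thus not particular to the 35 either. Deviations of a member from its group means, taken over the 9 libraries, were correlated with those of the other 34 members' mean at r = 0.757 (Cenpa) to 0.993 (Mki67), with a median of 0.963. Over all tested genes the median correlation with the member mean was -0.0157. A median of signed values does not tell how many other genes follow the members. These correlations describe libraries that each share 1 preparation and depth. The SD of the log2 level within a genotype had a member median of 0.238 in DKO_TG, 0.375 in DKO and 0.213 in WT, against 0.0950, 0.189 and 0.156 for all tested genes in the same groups.

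**Figure D1:**
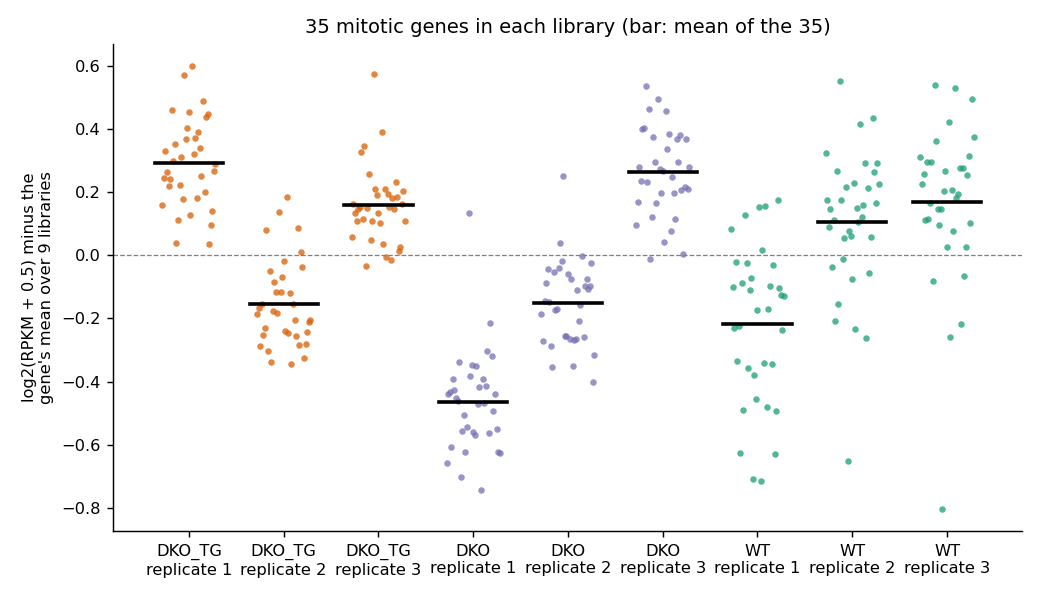
Level of each of the 35 mitotic genes (points) in each library, as log2(RPKM + 0.5) minus the gene's mean over the 9 libraries, with a bar at the mean of the 35. The genes of a library move as a block: DKO replicate 1 lies lowest, and DKO_TG replicates 1 and 3, DKO replicate 3 and WT replicates 2 and 3 lie above the line on average.

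Marker levels that moved with this library pattern were picked from 10 lists after their values were seen, and their part in it was not tested. The luteal list (7 genes of steroid-producing and luteal cells, none at 0) was highest, in each genotype, in the library with the lowest mitotic level. Its summed level was 6789, 7895 and 7359 RPKM in DKO_TG libraries 1, 2 and 3, then 7027, 5929 and 5422 RPKM in DKO, and 10336, 7700 and 7778 RPKM in WT. Hsd3b1 made up 61.1% of that sum. Without Hsd3b1 the sums were 2838, 3156 and 3019 RPKM in DKO_TG, 2202, 1920 and 1155 RPKM in DKO, and 4819, 3357 and 3286 RPKM in WT, again highest in the same libraries. The granulosa list (10 genes, none at 0) summed to 2104, 1793 and 2226 RPKM in DKO_TG, 1760, 1232 and 2608 RPKM in DKO, and 1881, 2697 and 2571 RPKM in WT. It was thus lowest in the library with the lowest mitotic level in DKO_TG and in WT but not in DKO, and within DKO it was highest in replicate 3. Inha made up 70.5% of that sum.

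Few mitotic genes were called between DKO and WT ovaries. Of the 35, Cenpa was higher in DKO and Ccna2, Plk1, Nuf2, Tpx2 and Ube2c were lower, with 29 not called at an adjusted p under 0.05 in limma. Called higher was thus 2.86% of the members against 30.8% of all tested genes, and called lower was 14.3% against 25.9%. In both directions together 6 members were called, against 56.7% of all tested genes, so the shares lie under the background of this comparison. The members also varied more within a genotype. Their median SD on the log2 scale was 0.375 in DKO and 0.213 in WT, against 0.189 and 0.156 for all tested genes. A change of a given size is harder to call at that spread, so few calls do not mean few differences. The members' median log2 change was -0.14, with a range from -0.70 to 1.02 and 26 of 35 below 0, while the median over all tested genes was 0.02. Leaving out DKO replicate 1 brought the members' median to 0.01, leaving out DKO replicate 3 to -0.34 and leaving out WT replicate 1 to -0.28, and it turned to 0.34 with TPM-like scaling and 0.16 with the plain total of reads. Every DKO library lay below every WT library for 4 members (background 28.6%) and above for 1 (background 32.6%). The 5 lower genes became 12 when DKO replicate 3 was left out and 1 when DKO replicate 1 or WT replicate 2 was, and there were 0 with 2 other scalings between libraries.

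No mitotic gene was called between DKO_TG and DKO, the comparison that the transgene label is about. All 35 log2 changes lay above 0, from 0.05 to 0.38 with a median of 0.23, against a median of 0.03 over all tested genes. In limma 0 members were called in either direction, also 0 at an unadjusted p under 0.05, and 0 of 32 by limma-voom on recovered reads. The background was 0.498% of tested genes called higher and 1.73% called lower, 2.23% in all. DKO_TG and DKO libraries overlapped for all 35 members, where 12.1% of all tested genes had every DKO_TG library above every DKO library. Because the members move as a block within libraries, the 35 signs are not 35 separate observations, and single libraries moved them. Without DKO replicate 1, 25 of 35 lay above 0 and the median was 0.05, and without DKO replicate 3 the median was 0.41. Without DKO_TG replicate 1 the median was 0.12 and 33 lay above 0, and without DKO_TG replicate 2 it was 0.34. The interval of a single member was wide: for Kif11, with the highest change, it ran from -0.11 to 0.88 (95%).

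Between DKO_TG and WT ovaries 3 members were called, Cenpa, Kif11 and Kif23, all higher in DKO_TG. That is 8.57% of the members against 29.1% of all tested genes called higher, and the wider spread of the members limits calls here too. In limma 0 members were called lower, with 2 lower at an unadjusted p under 0.05 (Plk1 and Ube2c) and 0 lower by limma-voom on recovered reads, against 22.3% of all tested genes. The median log2 change was 0.02, with 18 of 35 above 0, against 0.03 over all tested genes. Leaving out 1 library gave medians from -0.09 (WT replicate 1) to 0.17 (DKO_TG replicate 2), while TPM-like scaling gave 0.51 and the plain total of reads 0.28. The 3 higher members were 11 with TPM-like scaling, 5 with the plain total, and 1 when WT replicate 1 or DKO_TG replicate 1 was left out. Every DKO_TG library lay above every WT library for 5 members (background 35.6%) and below for 3 (background 30.2%). The 3 comparisons share libraries in pairs, so their values are not independent of each other.

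Markers of other cells moved with the genotype, and their part in the differences of the mitotic genes was not tested. In DKO against WT, 8 of 10 macrophage markers, 3 of 4 tested lymphocyte markers, 6 of 13 oocyte markers and 5 of 7 theca markers were higher in limma, and 5 of 7 endothelial, 3 of 7 luteal, 2 of 5 smooth muscle and 1 of 10 granulosa markers were lower, against 30.8% of all tested genes called higher and 25.9% lower. In DKO_TG against WT, 8 of 13 oocyte, 2 of 4 tested lymphocyte, 2 of 7 theca and 1 of 10 macrophage markers were higher. In the same comparison 4 of 6 surface epithelium, 4 of 7 endothelial, 3 of 5 tested erythrocyte, 3 of 10 macrophage, 2 of 5 smooth muscle and 2 of 10 granulosa markers were lower, against 29.1% of all tested genes called higher and 22.3% lower. The macrophage list summed to 170 to 218 RPKM per library in DKO_TG, 262 to 488 RPKM in DKO and 186 to 234 RPKM in WT. Of its 10 genes 7 were lower in DKO_TG than in DKO, as were 2 of 4 tested lymphocyte markers, against 1.73% of all tested genes. The oocyte list summed to 59.9 to 87.6 RPKM in DKO_TG, 40.2 to 94.4 RPKM in DKO and 20.2 to 42.3 RPKM in WT. The granulosa list, the one of the dividing cell type, overlapped between all genotypes (1793 to 2226 RPKM in DKO_TG, 1232 to 2608 RPKM in DKO, 1881 to 2697 RPKM in WT). Of the listed markers 0 were at 0 in every library.

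**Figure D2:**
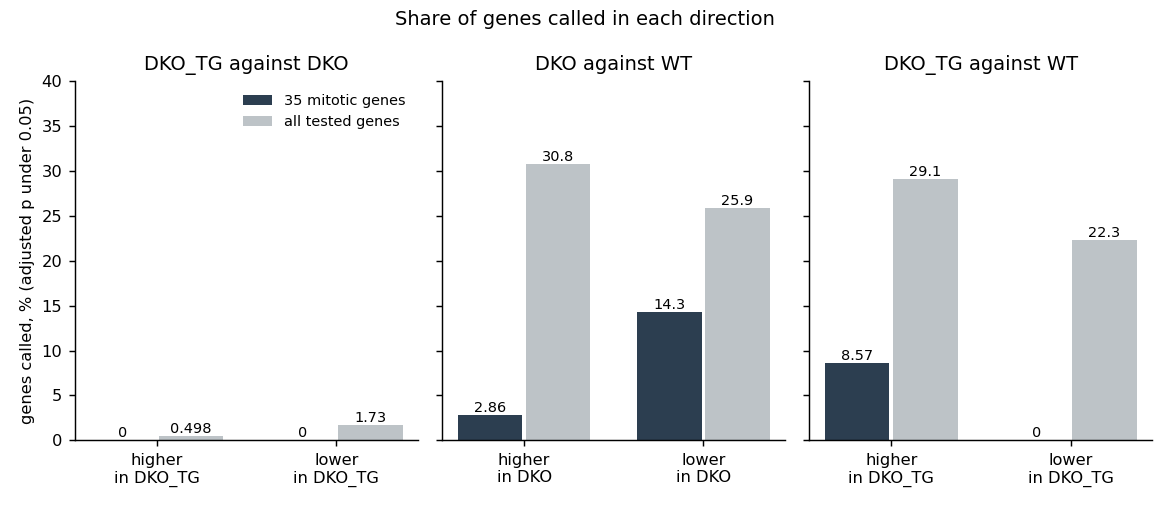
Share of genes called in each direction (%, limma adjusted p under 0.05) for the 35 mitotic genes (dark bars) and all 18889 tested genes (light bars) in each comparison. The mitotic share lies under the share of all tested genes in the 2 comparisons with WT, where the wider spread of the members limits calls. Between DKO_TG and DKO it is 0 in both directions. The shares of all tested genes there are 0.498% and 1.73%, so low that 0 of 35 is near them.

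Among the cyclins, CDK1 and its activators, 1 of 6 members was called in DKO against WT and 0 in the other comparisons. Of all tested genes 56.7% were called in DKO against WT, 2.23% in DKO_TG against DKO and 51.4% in DKO_TG against WT. Ccna2, the A-type cyclin of S and G2 phase (mm10 chromosome 3, 36564865 to 36572150, minus strand), had 12.6, 9.79 and 11.7 RPKM in DKO_TG, 6.91, 9.78 and 12.0 RPKM in DKO, and 11.9, 14.2 and 14.0 RPKM in WT. DKO replicate 3 overlapped the lowest WT library. Ccna2 fell in DKO against WT, at -0.49 ± 0.18 on the log2 scale (SE; adjusted p = 0.0469 in limma), a call held in 5 of 20 alternatives and lost without any single library other than DKO replicate 3. It shares 12.5% of its exon bases with Exosc9 on the other strand and is uncertain to that extent.

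Ccnb2, a B-type cyclin and the most abundant of the 35, had 24.9, 16.1 and 21.7 RPKM in DKO_TG, 14.4, 17.7 and 24.04 RPKM in DKO, and 16.7, 21.0 and 23.6 RPKM in WT. Those values overlap throughout, and its log2 change was 0.16 for DKO_TG minus DKO and -0.14 for DKO minus WT (adjusted p = 0.766 and 0.607 in limma). Ccnb1, the cyclin whose destruction ends mitosis, had 10.9, 8.02 and 10.2 RPKM in DKO_TG, 6.55, 7.42 and 10.3 RPKM in DKO, and 8.43, 10.3 and 10.7 RPKM in WT. It too overlapped between all groups, with a log2 change of 0.26 for DKO_TG minus DKO, 95% interval -0.14 to 0.66, and -0.28 for DKO minus WT, 95% interval -0.68 to 0.12. Cdk1, the kinase these cyclins activate, Cdc25c, the phosphatase that frees it, and Foxm1, a transcription factor of G2/M genes, had log2 changes from -0.23 to 0.23 over the 3 comparisons, none called.

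Plk1, the Polo kinase that drives entry into mitosis and spindle assembly, was the member with the largest fall in DKO. It lies on chromosome 7 at 122159439 to 122169873 (plus strand) and had 7.58, 5.72 and 7.18 RPKM in DKO_TG, 4.34, 6.47 and 7.31 RPKM in DKO, and 8.10, 11.04 and 10.9 RPKM in WT. Every DKO_TG and every DKO library lay below every WT library. Plk1 changed by -0.70 ± 0.20 in DKO against WT (SE; adjusted p = 0.0148 in limma) and was called in 18 of 20 alternatives, all but TPM-like scaling and the plain total of reads. For DKO_TG minus WT the log2 change was -0.52, with an adjusted p of 0.0532 in limma, and for DKO_TG minus DKO it was 0.18 (adjusted p = 0.697). It shares 7.09% of its exon bases with Gm44985 on the other strand and is uncertain to that extent.

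The other kinases were not called in any comparison. Bub1b, the checkpoint protein BubR1, had 10.7, 6.86 and 9.34 RPKM in DKO_TG, 6.09, 6.60 and 10.2 RPKM in DKO, and 8.04, 10.4 and 10.6 RPKM in WT. Bub1, a checkpoint kinase at the kinetochore, had 7.33, 5.51 and 6.64 RPKM in DKO_TG, 3.65, 4.16 and 7.75 RPKM in DKO, and 3.18, 4.42 and 5.88 RPKM in WT. Both genes overlapped between groups, with log2 changes for DKO minus WT of -0.35 for Bub1b and 0.16 for Bub1. The checkpoint kinase gene Ttk had all 3 DKO_TG libraries (2.56 to 3.54 RPKM) above all WT libraries (1.75 to 2.49 RPKM), but its log2 change of 0.46 was not called (adjusted p = 0.101 in limma). Aurka, the spindle pole kinase, averaged 6.46 ± 0.829 RPKM in DKO_TG, 5.51 ± 1.39 RPKM in DKO and 7.19 ± 1.02 RPKM in WT (SD, n = 3 each).

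The chromosomal passenger complex corrects faulty attachments of chromosomes to the spindle, and 0 of its 3 members were called in limma, 0 at an unadjusted p under 0.05 and 0 by limma-voom in any comparison. The limma shares over all tested genes were 56.7% in DKO against WT, 2.23% in DKO_TG against DKO and 51.4% in DKO_TG against WT. Aurkb, its kinase, had 8.66, 6.89 and 8.87 RPKM in DKO_TG, 5.01, 7.12 and 9.66 RPKM in DKO, and 5.62, 7.27 and 8.19 RPKM in WT. Birc5 (survivin) had 10.1, 7.34 and 8.30 RPKM in DKO_TG, 5.01, 8.23 and 9.94 RPKM in DKO, and 7.38, 8.34 and 8.60 RPKM in WT. Cdca8 (borealin) had 4.96, 3.75 and 4.70 RPKM in DKO_TG, 2.80, 4.26 and 4.91 RPKM in DKO, and 4.08, 5.10 and 4.83 RPKM in WT. In all 3 genes DKO replicate 1 was the lowest of the 9 libraries, and the genotypes overlapped. Log2 changes for DKO minus WT were 0.02 for Aurkb, -0.11 for Birc5 and -0.23 for Cdca8.

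Cenpa, the histone H3 variant that marks centromeres, was the one member called against WT in both knockout groups. It lies on chromosome 5 at 30666777 to 30674830 (plus strand) and had 6.99, 5.05 and 7.003 RPKM in DKO_TG, 5.02, 5.50 and 6.61 RPKM in DKO, and 2.58, 2.71 and 2.38 RPKM in WT. The highest WT library lay under the lowest of the other 6. Cenpa rose by 1.02 ± 0.14 on the log2 scale in DKO against WT (SE; adjusted p = 0.000476 in limma) and by 1.15 ± 0.14 in DKO_TG against WT (SE; adjusted p = 0.00026). Each of those calls held in 20 of 20 alternatives, with log2 changes from 0.78 to 1.49 and from 0.91 to 1.61. DKO_TG minus DKO was 0.13 (adjusted p = 0.691). Cenpa was also the member that followed the others least from library to library.

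Nuf2, a subunit of the NDC80 complex that grips spindle microtubules, went the other way in DKO. The gene (chromosome 1, 169497934 to 169531464, minus strand) had 3.04, 2.25 and 2.99 RPKM in DKO_TG, 1.69, 2.20 and 2.84 RPKM in DKO, and 3.11, 3.30 and 3.85 RPKM in WT. All 6 knockout libraries lay below the WT libraries. Nuf2 fell in DKO against WT, at -0.53 ± 0.17 on the log2 scale (SE; adjusted p = 0.0247 in limma), a call held in 14 of 20 alternatives and lost, among others, without WT replicate 2 or 3 or DKO replicate 1. Its partner Ndc80 did not show this: it averaged 2.64 ± 0.540 RPKM in DKO_TG, 2.08 ± 0.718 RPKM in DKO and 2.09 ± 0.178 RPKM in WT (SD, n = 3 each; log2 change -0.04 for DKO minus WT). The difference between the 2 partners was not tested. Cenpe, a kinetochore motor, had 4.46, 3.04 and 3.94 RPKM in DKO_TG, 2.45, 2.72 and 4.15 RPKM in DKO, and 2.45, 3.55 and 3.93 RPKM in WT, which overlapped. Cenpf, another kinetochore protein, was among the members with the lowest levels, at 1.501 to 3.13 RPKM over the 9 libraries, and was not called.

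Of the 5 spindle motors and assembly factors, Tpx2 was lower in DKO than in WT and Kif11 higher in DKO_TG than in WT. Over all tested genes 25.9% were called lower in DKO and 29.1% higher in DKO_TG, each against WT. Tpx2, which activates Aurora A on the spindle (chromosome 2, 152847964 to 152895321, plus strand), had 12.5, 8.55 and 10.96 RPKM in DKO_TG, 6.37, 9.07 and 11.6 RPKM in DKO, and 12.3, 14.8 and 16.1 RPKM in WT. The DKO libraries all lay below WT, while DKO_TG replicate 1 overlapped it. Tpx2 fell in DKO against WT by 0.68 on the log2 scale (SE 0.22; adjusted p = 0.0249 in limma). The call held in 14 of 20 alternatives and was also lost without WT replicate 2 or 3 or DKO replicate 1.

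Kif11, the motor Eg5 that pushes spindle poles apart (chromosome 19, 37376403 to 37421859, plus strand), had 11.7, 8.66 and 10.1 RPKM in DKO_TG, 5.82, 7.15 and 10.6 RPKM in DKO, and 4.42, 6.36 and 6.24 RPKM in WT. All DKO_TG libraries were above all WT libraries, and DKO spanned both. In DKO_TG against WT Kif11 rose by 0.79 ± 0.22 on the log2 scale (SE; adjusted p = 0.0147 in limma), a call lost without WT replicate 1 or without DKO_TG replicate 1 (highest adjusted p = 0.0557) and held in 17 of 19 alternatives. In DKO against WT its log2 change was 0.41 (adjusted p = 0.134). The motors Kif4 and Kif2c and the microtubule binder Nusap1 were not called, with log2 changes for DKO minus WT of -0.29, -0.05 and -0.03.

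Central spindle and cytokinesis genes build the structure on which a dividing cell splits, and 1 of 6 was called, in DKO_TG against WT. Over all tested genes 51.4% were called in that comparison and 56.7% in DKO against WT. Kif23, a motor of the centralspindlin complex (chromosome 9, 61915905 to 61946774, minus strand), had 5.37, 3.94 and 4.25 RPKM in DKO_TG, 2.89, 3.68 and 4.90 RPKM in DKO, and 2.80, 2.98 and 3.10 RPKM in WT. Every DKO_TG library lay above every WT library. Kif23 rose in DKO_TG against WT by 0.53 ± 0.17 on the log2 scale (SE; adjusted p = 0.0293 in limma), held in 13 of 20 alternatives and lost without any single WT library or without DKO_TG replicate 1 or 3.

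Racgap1, the partner of Kif23 in centralspindlin, had 8.29, 5.78 and 7.97 RPKM in DKO_TG, 4.67, 5.89 and 8.88 RPKM in DKO, and 6.98, 8.36 and 8.77 RPKM in WT. Its values overlapped between groups and gave log2 changes of -0.13 for DKO_TG minus WT and -0.33 for DKO minus WT, while those of Kif23 were 0.53 and 0.30; the difference between the partners was not tested. Kif20a, the motor MKLP2, had 6.14, 4.18 and 5.02 RPKM in DKO_TG, 3.69, 4.50 and 5.54 RPKM in DKO, and 4.72, 6.34 and 6.27 RPKM in WT. It shares 29.3% of its exon bases with Cdc23 and is uncertain. Ect2, the exchange factor that starts the cleavage furrow, lay above WT in every DKO_TG library (4.10 to 5.69 RPKM against 2.45 to 3.89 RPKM) but was not called (log2 change 0.48, adjusted p = 0.0827 in limma). Prc1, which bundles central spindle microtubules, and Anln (anillin) had log2 changes of 0.04 and 0.34 for DKO_TG minus WT, not called.

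Ube2c, the E2 enzyme that primes substrates of the anaphase-promoting complex, fell in DKO. The gene (chromosome 2, 164769898 to 164778822, plus strand) had 9.19, 7.04 and 9.03 RPKM in DKO_TG, 6.21, 8.27 and 8.98 RPKM in DKO, and 10.2, 12.3 and 10.8 RPKM in WT. All 6 knockout libraries lay below all WT libraries. The log2 change was -0.49 ± 0.15 for DKO minus WT (SE; adjusted p = 0.0237 in limma) and -0.38 for DKO_TG minus WT (adjusted p = 0.0643). The call in DKO held in 16 of 20 alternatives and was lost, among others, without WT replicate 2 or DKO replicate 1. Ube2c shares 22.8% of its exon bases with Tnnc2 on the other strand and is uncertain. Cdc20, the activator of the complex in mitosis, had 16.1, 12.3 and 15.3 RPKM in DKO_TG, 10.9, 14.0 and 17.5 RPKM in DKO, and 13.9, 18.1 and 18.8 RPKM in WT. It overlapped between groups, and so did Cdca3, a target of the complex, with averages of 8.80 ± 1.40 RPKM in DKO_TG, 8.47 ± 2.77 RPKM in DKO and 8.94 ± 0.980 RPKM in WT (SD, n = 3 each).

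Top2a and Mki67, the genes most used as marks of dividing cells, were not called in any comparison. Top2a, the topoisomerase that untangles chromosomes, had 19.2, 13.7 and 18.4 RPKM in DKO_TG, 10.1, 11.9 and 18.5 RPKM in DKO, and 13.4, 19.6 and 22.6 RPKM in WT. Mki67, which coats mitotic chromosomes, had 18.9, 13.3 and 16.6 RPKM in DKO_TG, 9.79, 12.3 and 18.8 RPKM in DKO, and 14.0, 18.1 and 20.1 RPKM in WT. In both genes DKO replicates 1 and 2 lay below all WT libraries and DKO replicate 3 among them. The log2 change for DKO minus WT was -0.45 for Top2a, 95% interval -1.03 to 0.12, and -0.38 for Mki67, 95% interval -0.92 to 0.16. For DKO_TG minus DKO it was 0.36 and 0.28 (adjusted p = 0.542 and 0.606 in limma).

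**Figure D3:**
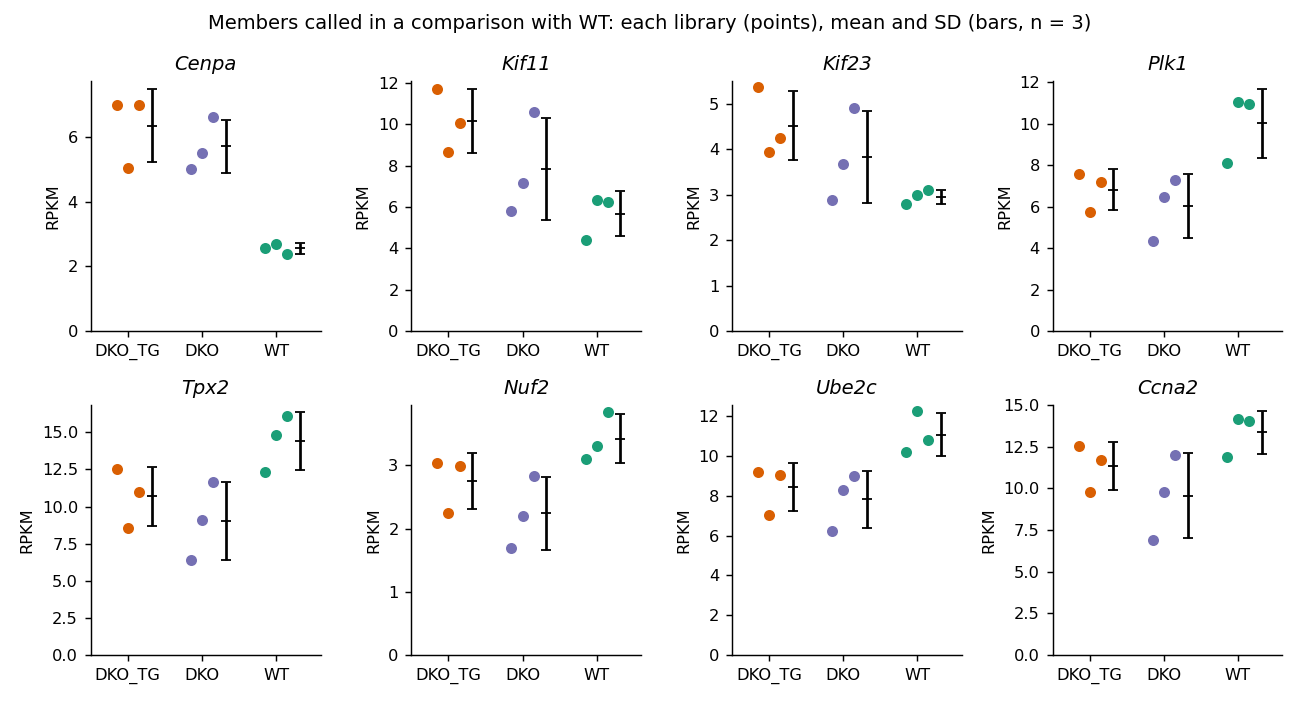
RPKM of the 8 members called in a comparison with WT, in each library (points), with the mean and SD of each genotype (bars, n = 3). Cenpa is at 2.38 to 2.71 RPKM in WT and at 5.02 RPKM or more in the other 6 libraries, while for the other 7 genes the groups lie closer or overlap.

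**Figure D4:**
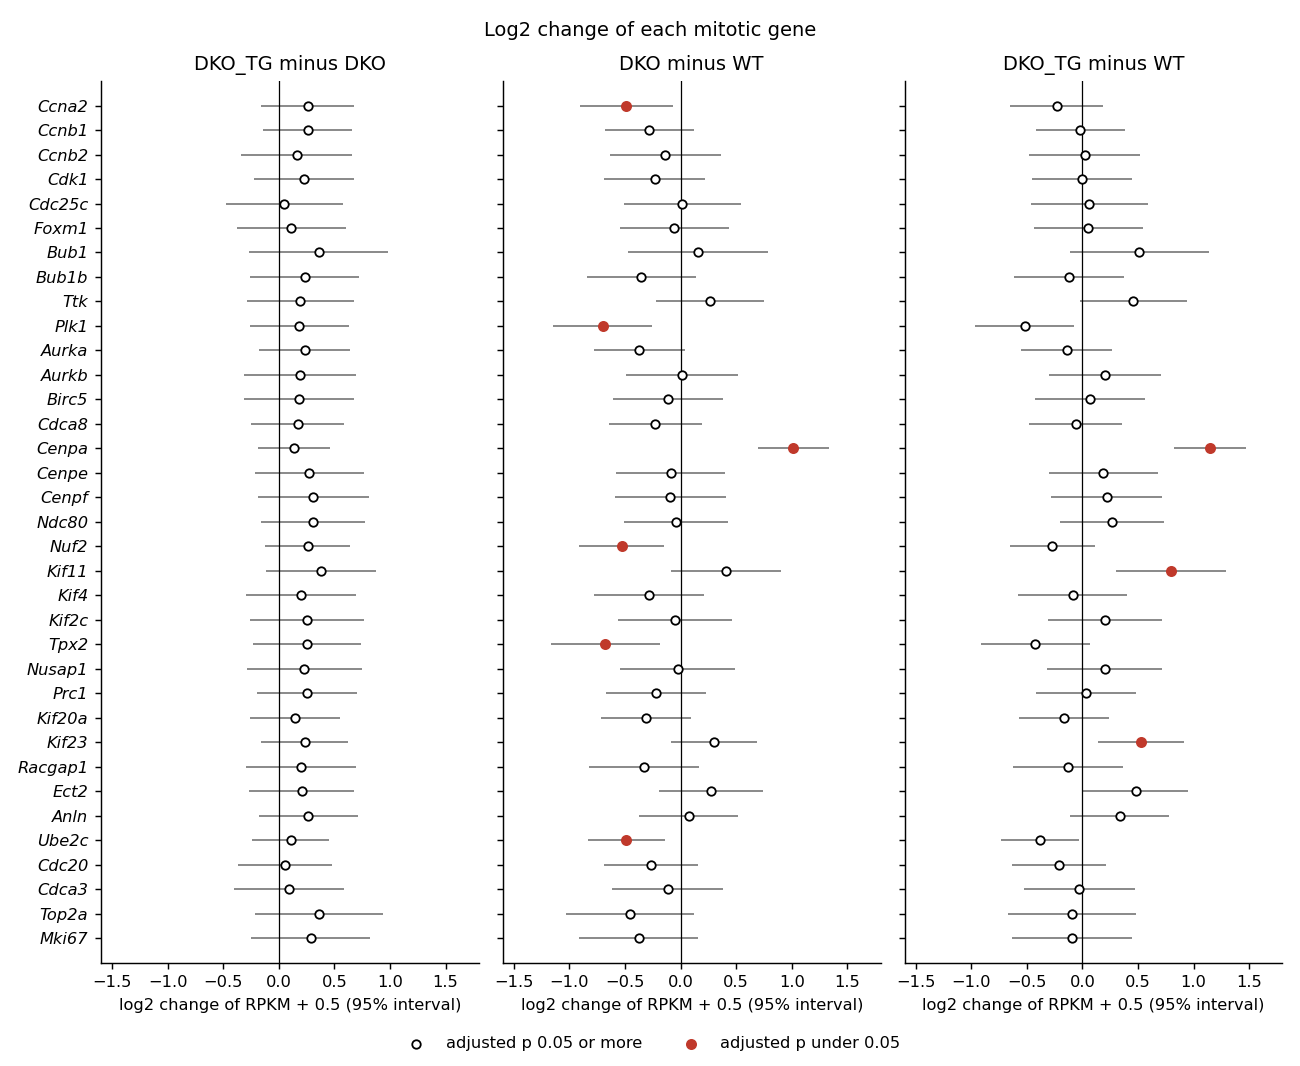
Log2 change of RPKM + 0.5 for each of the 35 genes, with its 95% interval, in the 3 comparisons; filled points have an adjusted p under 0.05. Between DKO_TG and DKO all points lie right of 0 and every interval spans 0, while against WT the points spread to both sides, from -0.70 (Plk1) to 1.15 (Cenpa).

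Relative to each other, the members differed more from WT than the 2 knockout groups differed between themselves, which was not particular to them. Of all tested genes 56.7% were called in limma in DKO and 51.4% in DKO_TG, each against WT, and 2.23% between DKO_TG and DKO. The mean of the 35 was subtracted in every library, which removes only a shift that all 35 genes share equally. A library effect that acts unevenly on genes stays in these values, and its part was not tested. After the subtraction the difference for DKO_TG minus DKO ran from -0.17 to 0.16. For DKO minus WT it ran from -0.57 to 1.15: Cenpa stood at 1.15, Kif11 at 0.55, Kif23 at 0.43, Ect2 at 0.41 and Ttk at 0.40, with Plk1 at -0.57, Tpx2 at -0.54 and Nuf2 at -0.39. For DKO_TG minus WT the same genes stood at 1.07 (Cenpa), 0.71 (Kif11), 0.45 (Kif23), 0.40 (Ect2) and 0.38 (Ttk), and at -0.60 (Plk1), -0.50 (Tpx2) and -0.35 (Nuf2). The genes named were taken from DKO minus WT. For DKO_TG minus WT, Ube2c at -0.46 and Bub1 at 0.43 lay further out than some of them. The 2 comparisons with WT share the WT libraries, and these differences were not tested.

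Annotation of the members bears on how their reads were counted. In GENCODE M21 the share of a gene's exon bases that lie outside protein-coding transcripts, such as in retained introns, was 0% to 72.0% over the members, with a median of 23.4%. Cenpa had the highest share, with 1641 of 5860 exon bases in protein-coding transcripts. Plk1, Ube2c, Birc5, Ccnb2 and Mki67 were at 0%. Across the 35 genes this share was correlated with the log2 change for DKO minus WT at Pearson r = 0.436 and Spearman rho = 0.410, and without Cenpa at 0.307 and 0.356. For DKO_TG minus WT it was 0.453 and 0.429, and without Cenpa 0.338 and 0.378. For DKO_TG minus DKO it was 0.116 and 0.196. Kif4, Cdc25c and Prc1 share 15.1%, 12.7% and 11.1% of their exon bases with neighbours on the other strand and are uncertain to that extent. Genes of one library set are not independent, and whether reads of Cenpa come from its coding transcripts was not tested.

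**Figure D5:**
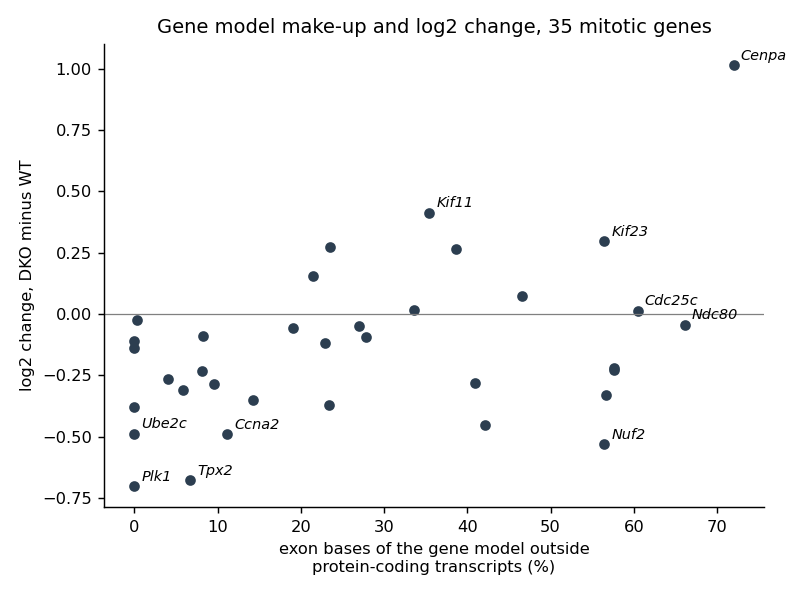
Share of each gene's exon bases outside protein-coding transcripts (%, GENCODE M21) against its log2 change of RPKM + 0.5 for DKO minus WT, 1 point per mitotic gene. Cenpa stands alone at 72.0% and a log2 change of 1.02, and Plk1 and Ube2c stand at 0% and below -0.4. Birc5, Ccnb2 and Mki67, also at 0%, stand at -0.11, -0.14 and -0.38, and Nuf2 goes the other way, at 56.4% and -0.53.

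Regulators of the same stretch of the cell cycle were read from lists of genes outside the 35. In DKO against WT, 7 of 14 brakes on G2 and on CDKs rose and 0 fell in limma, with 1 lower at an unadjusted p under 0.05 and 0 lower by limma-voom, against 30.8% of all tested genes called higher and 25.9% lower. The list median was 0.35 on the log2 scale. Gadd45b, a stress-induced inhibitor of growth, had 3.35, 4.58 and 3.32 RPKM in DKO_TG, 5.42, 7.07 and 4.78 RPKM in DKO, and 1.51, 1.801 and 1.45 RPKM in WT. Btg2, an anti-proliferative gene, had 12.2, 12.7 and 12.3 RPKM in DKO_TG, 9.52, 10.6 and 10.2 RPKM in DKO, and 6.92, 6.19 and 6.41 RPKM in WT. Neither gene overlapped between groups. Gadd45b rose by 1.57 and Btg2 by 0.60 on the log2 scale in DKO against WT (adjusted p = 9.05e-05 and 0.000311 in limma). The others that rose were Cdkn1b (p27), Fbxo5, Gadd45g, Pkmyt1 and Btg1. Fbxo5 inhibits the anaphase-promoting complex and not a CDK, so its rise is not that of a brake on CDKs. In DKO_TG against WT 6 of the 14 rose and Cdkn1c fell, against 29.1% of all tested genes called higher and 22.3% lower. Cdkn1c and Pkmyt1 share 30.6% and 8.76% of their exon bases with neighbours and are uncertain. In DKO_TG against DKO 0 were called, against 2.23% of all tested genes. There 1 was higher and 1 lower at an unadjusted p under 0.05, and 0 were called by limma-voom.

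The DREAM, MuvB and E2F regulators, which hold cell cycle promoters off or on, had 7 of 16 called higher and 1 called lower for DKO against WT, with the same counts for DKO_TG against WT, in limma. The background against WT was 30.8% higher and 25.9% lower in DKO, and 29.1% and 22.3% in DKO_TG. The list's median log2 change was 0.22 in DKO against WT. Rbbp4 (called lower) and Rb1 (called higher) share 18.05% and 14.9% of their exon bases with neighbours and are uncertain. E2f5, a repressor E2F, had 9.95, 10.1 and 10.7 RPKM in DKO_TG, 10.9, 9.85 and 10.6 RPKM in DKO, and 4.37, 5.08 and 4.93 RPKM in WT. E2f4, another E2F of the DREAM complex, had 14.5, 13.1 and 13.4 RPKM in DKO_TG, 15.2, 16.3 and 14.7 RPKM in DKO, and 9.53, 10.2 and 9.60 RPKM in WT. Both were higher in every knockout library than in WT, by 1.05 (E2f5) and 0.63 (E2f4) on the log2 scale in DKO (adjusted p = 2.12e-05 and 0.000257 in limma). The count of 7 in DKO against WT was 4 without WT replicate 1 or DKO replicate 3, 3 with quantile normalization, 2 in a fit of the 6 libraries compared and 11 with TPM-like scaling.

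DNA replication genes, which act in the S phase before mitosis, had 13 of 22 called lower and 1 (Orc6) called higher for DKO against WT in limma, with a median log2 change of -0.52, against 25.9% of all tested genes called lower and 30.8% higher. Of the 35 mitotic genes 5 were lower in that comparison, with a median of -0.14; the difference between the lists was not tested. Mcm6, a subunit of the replicative helicase, had 10.5, 9.34 and 10.3 RPKM in DKO_TG, 6.24, 7.98 and 12.8 RPKM in DKO, and 22.8, 23.2 and 27.9 RPKM in WT. Tyms, which makes thymidylate, had 4.22, 3.78 and 4.41 RPKM in DKO_TG, 2.59, 4.31 and 4.51 RPKM in DKO, and 7.44, 6.56 and 7.27 RPKM in WT. All knockout libraries lay below all WT libraries in both genes, and in DKO the log2 changes were -1.46 and -0.85 (adjusted p = 0.000667 and 0.00332 in limma). In DKO_TG against WT 9 were lower and 1 higher, against 22.3% and 29.1% of all tested genes. Mcm7 (called lower) and Orc6 share 12.6% and 6.93% of their exon bases with neighbours and are uncertain to that extent. The 13 lower genes were 8 without WT replicate 3, 4 with the plain total of reads and 1 with TPM-like scaling; the 9 were 14 without DKO replicate 3 or in a fit of the 6 libraries compared, 3 with the plain total and 1 with TPM-like scaling.

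The remaining lists had members on both sides, in shares to be read against the 30.8% of all tested genes called higher and 25.9% lower in DKO, and the 29.1% and 22.3% in DKO_TG, against WT. In DKO against WT, 8 of 51 other kinetochore and spindle genes were called higher and 6 lower, and in DKO_TG against WT the counts were 12 and 3. Mad1l1, a checkpoint protein, averaged 5.85 ± 0.185 RPKM in DKO_TG, 5.13 ± 0.441 RPKM in DKO and 10.4 ± 0.966 RPKM in WT, and Cenpt, which links the centromere to the kinetochore, averaged 5.91 ± 0.382, 5.79 ± 0.582 and 3.21 ± 0.366 RPKM in DKO_TG, DKO and WT (SD, n = 3 each). Mad1l1 fell by 0.96 and Cenpt rose by 0.76 on the log2 scale in DKO against WT (adjusted p = 7.62e-05 and 0.000474 in limma). Of 15 subunits of the anaphase-promoting complex 4 rose and 3 fell in DKO against WT. Condensin, cohesin and separase genes had 1 higher and 2 lower of 17, and G1 cyclins and CDKs 2 higher and 3 lower of 8. Among the genes called, Anapc15, Ccnd1, Ncaph2, Cdk4 and Anapc13 share 38.4%, 23.4%, 19.75%, 19.7% and 10.05% of their exon bases with neighbours and are uncertain. Between DKO_TG and DKO, 0 genes of these lists, of the DREAM list or of the DNA replication list were called in limma, 0 at an unadjusted p under 0.05 and 0 by limma-voom. The limma share over all tested genes was 2.23% in that comparison.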

How the data were processed

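Total RNA of 9 ovary libraries was sequenced, and the authors deposited the results as RPKM (reads scaled by exon length and library size) for 54838 genes. Per the submitters' processing notes reads were handled with HISAT2 2.1.0, cutadapt, DESeq2 1.2.8 and HTSeq 0.5.4p5 on mm10. How RPKM was computed, on which annotation and with which strand setting, is not given in the sources used. Columns of the transgene group spell its name differently from the labels and were matched by group and number. Multiplying by GENCODE M21 exon lengths gave whole reads (within 0.01 read or a relative 1e-06) for 97.6% to 97.9% of the values, 40.1 to 59.4 M per library and 395 to 12367 per member and library, with none recovered for 3 members (Cdc25c, Kif11, Kif20a). The library size implied by the RPKM was 0.793 to 0.920 of the plain total in WT and 1.03 to 1.11 in the other groups, which is a rescaling between libraries inside the deposited values.

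Differences were tested by limma 3.58.1 in R 4.3.3 (linear models, empirical Bayes with a mean trend) on log2(RPKM + 0.5), for 18889 genes that reached an RPKM of 0.5 in 3 or more libraries, with all 9 libraries in 1 fit and Benjamini-Hochberg adjustment over all tested genes. Fold changes on this scale understate those of low genes. The fit was also run on simulated data, with genes drawn independently at a common spread and few of them changed. Such data do not cover genes that move as a block, as the members do. The members and lists were chosen with earlier results of these data known. Per-library values are given for the 2 members with the highest mean level and those with the smallest adjusted p in each role group, and for up to 2 genes per other list by the smallest adjusted p; other genes are named where called or to complete a role. Promoters of Ccna2, Cdc25c, Foxm1, Aurkb, Tpx2 and Kif20a are not analysed here. Alternatives tried were TMM, quantile and TPM-like scaling (to equal summed RPKM), a pseudocount of 0.1 or 1, a filter at 1 RPKM or none, a replicate block, fits of only the 6 libraries compared, and fits that left out each library in turn. Scaling to the plain total of reads and limma-voom on recovered reads were added after the data were seen.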

Additional observations from a re-analysis of the deposited data

How the results depend on the processing

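Scaling between libraries moved counts and medians. TPM-like scaling moved the median log2 change of all tested genes to 0.49 for DKO minus WT and 0.48 for DKO_TG minus WT, and with it the members' medians to 0.34 and 0.51; relative to that shift the members still lay below it in the first comparison. It gave 5 higher members and 0 lower for DKO against WT and 11 higher for DKO_TG against WT, and turned Ccna2 and Ube2c to 0.0375 and 0.0357 for DKO minus WT. With the plain total of reads DKO against WT had 3 higher members and 0 lower, the median was 0.16, and 5 were higher in DKO_TG than in WT. For DKO minus WT 3 members were lower without a filter and 3 with quantile normalization. For DKO_TG minus WT 1 was lower with TMM, 1 with quantile normalization and 2 in a fit of the 6 libraries compared. Leaving out 1 library gave 1 to 3 members higher and 1 to 12 lower in DKO than in WT, and 1 to 4 higher and 0 to 2 lower in DKO_TG than in WT. For DKO_TG against DKO 0 members were called in each of the 20 alternatives. With the replicate block 4 members were lower in DKO than in WT (5 without it) and the other member counts were the same. Same-numbered libraries deviated with correlations of -0.309 to 0.142 over all tested genes and -0.171 to 0.494 over the members, not above 0.1 in every pair. With 3 libraries per genotype these values cannot tell whether the numbers pair libraries, and the main fit left them unpaired. Each member had 395 reads or more in every library where they could be recovered.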
